A study of Mus musculus with 2 samples.

Results

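Resident macrophages of the mouse heart marked by Folr2, Lyve1 and Timd4 are described here from a single-cell RNA library. A barcode was a member when its raw UMIs (unique molecular identifiers, which count captured transcripts) met all of the following: Csf1r of at least 1, C1qa, C1qb and C1qc summing to at least 10, no Pdgfra and no Cdh5, Arg1 below 2, fewer than 3 of 8 cycling genes detected, and at least 2 of the 5 resident markers Timd4, Folr2, Lyve1, Cd163 and Cbr2 detected. The members were thus chosen by measured UMIs, and those values support no finding here. These were 861 of 9369 barcodes, 9.19% of the pool (95% Clopper-Pearson interval 8.61 to 9.79%) and 44.7% (42.4 to 46.9%) of the 1927 barcodes of the macrophage gate, which is the rule without its Arg1, cycling and resident-marker conditions. They are called resident-marker macrophages. They are set against 951 marker-poor macrophages, which met the same conditions but had 0 or 1 of the 5 markers. The remaining gate held 39 barcodes with at least 2 Arg1 UMIs and 76 with at least 3 cycling genes.

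The library is a single pool of heart cells other than cardiomyocytes from 4 Nts KO and 3 control mice, 7 days after TAC (transverse aortic constriction, which overloads the left ventricle). The series title concerns neurotensin (Nts) from lymphatic cells. The labels give no allele, promoter or strain for the KO mice, and their genotype entry for the whole pool reads WT with an age of 6 to 8 weeks. Live cells were sorted with calcein-AM and DAPI. A hashtag antibody marked each mouse, but no file used here ties a barcode to a mouse, so no comparison of KO with control hearts was made and every value averages over both in unknown proportions. There was 1 gene expression library and no unoperated heart. Differences between sets of barcodes therefore have no replicate check and no p-value, and intervals cover counting error only.

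Macrophages of the heart include a long-lived resident population that is kept up largely by local proliferation, and cells that arise from blood monocytes through the chemokine receptor CCR2. Resident cells are known for folate receptor beta (Folr2), the hyaluronan receptor LYVE1 (Lyve1), the phosphatidylserine receptor TIM4 (Timd4) and the haptoglobin-hemoglobin receptor CD163 (Cd163), and are credited with clearing dead cells and debris. Cbr2 encodes a carbonyl reductase and F13a1 the A subunit of coagulation factor XIII, and both are common markers of the same cells in mice.

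The rule rests on the 5 resident markers, and the start regions of 3 of these genes are shown. RefSeq promoter entries of build GRCm38.p6 were matched for Folr2, Timd4, Cd163 and Cbr2 and for F13a1. The entries for Folr2 (chr7:101857141-101857440, minus strand, the upstream of a pair of starts), Timd4 (chr11:46810549-46810848, plus strand) and Cbr2 (chr11:120731972-120732271, minus strand) read as follows in the direction of transcription, with capitals marking TGCTGA, the core of the MAF recognition element, and GAGGAA, a core of the PU.1 motif, on either strand (TCAGCA is TGCTGA on the opposite strand).
Folr2: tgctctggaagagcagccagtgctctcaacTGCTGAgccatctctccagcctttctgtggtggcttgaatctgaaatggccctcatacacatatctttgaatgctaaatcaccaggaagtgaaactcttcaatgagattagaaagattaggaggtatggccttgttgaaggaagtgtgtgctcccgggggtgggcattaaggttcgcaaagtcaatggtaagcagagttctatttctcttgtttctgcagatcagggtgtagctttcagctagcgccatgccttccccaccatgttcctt
Timd4: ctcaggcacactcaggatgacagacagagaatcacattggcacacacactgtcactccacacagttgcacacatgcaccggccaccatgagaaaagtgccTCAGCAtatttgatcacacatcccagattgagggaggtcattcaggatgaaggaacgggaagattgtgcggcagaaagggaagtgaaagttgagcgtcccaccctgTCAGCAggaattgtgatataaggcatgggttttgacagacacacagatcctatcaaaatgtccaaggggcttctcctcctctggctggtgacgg
Cbr2: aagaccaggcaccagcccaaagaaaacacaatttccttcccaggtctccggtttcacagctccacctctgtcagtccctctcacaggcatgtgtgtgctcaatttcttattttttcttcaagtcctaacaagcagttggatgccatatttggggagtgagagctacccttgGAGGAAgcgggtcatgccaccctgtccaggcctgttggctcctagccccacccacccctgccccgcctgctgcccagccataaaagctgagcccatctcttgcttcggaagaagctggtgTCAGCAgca
PU.1 and MAF-family factors are general regulators of macrophage genes. TGCTGA was present in these 3 windows, with 2 matches in Timd4 and 1 each in Folr2 and Cbr2, and 19.48% of the 32851 promoters of the same length in the table held it. GAGGAA was present in Cbr2 and in both starts of F13a1, and 28.28% of the promoters held it. Cd163 held neither. A match is a description of the letters and not a binding site.

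Members had 5781795 UMIs in all, with a median of 5976 per barcode and a range of 2588 to 30890. Marker-poor macrophages had 5834951 UMIs, with a median of 5560. The median of detected genes was 2164 in members and 1940 in marker-poor macrophages, and the median mitochondrial share was 0.917% in members and 1.06% in marker-poor macrophages. Scrublet called 19 members (2.21%) and 16 marker-poor barcodes (1.68%) doublets, which were kept. Before the Pdgfra and Cdh5 step, 2176 of 2875 barcodes with Csf1r passed the C1q step. Among barcodes that met every other condition, resident markers included, few lay near the C1q threshold. A C1q sum of 10 to 14 was found in 1 member, and 2 other barcodes missed membership with a sum of 5 to 9. Marker-poor barcodes near the threshold were not counted. Barcodes that missed membership on another condition alone were 115 with Pdgfra or Cdh5 and 42 with cycling genes. A further 15 missed it with Arg1, and these could also have had cycling genes.

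The label was checked against macrophage markers. Of the 10 on the list, Csf1r, C1qa, C1qb and C1qc were required by the rule and check nothing. Of the other 6, 5 were at 50 CPM (UMIs per 1000000 summed UMIs) or more in members. That bar is a weak check, because 6 of 10 fibroblast markers also reached it in members. Adgre1, which encodes F4/80, was at 357 CPM in members and 350.5 CPM in marker-poor macrophages, and the lysosomal Cd68 was at 689 CPM in members and 570.2 CPM in marker-poor macrophages. Mertk, a receptor tyrosine kinase for dead cells, was the 1 below 50, at 43.2 CPM in members and 27.9 CPM in marker-poor macrophages. Markers used by the rule are given as description. Cbr2 was at 928 CPM in members and 49.0 CPM in marker-poor macrophages. Folr2 was at 819 CPM in members and 30.7 CPM in marker-poor macrophages, Lyve1 at 399.9 CPM in members and 0.686 CPM in marker-poor macrophages, Cd163 at 253 CPM in members and 12.3 CPM in marker-poor macrophages, and Timd4 at 112 CPM in members and 2.06 CPM in marker-poor macrophages. Members held most of each marker's UMIs in the pool: 77.9% for Timd4, 76.9% for Folr2, 76.2% for Cbr2, 73.2% for Cd163 and 53.9% for Lyve1, for which lymphatic endothelial barcodes held 15.9%.

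The rule was applied to a random 50% of each barcode's UMIs, with a C1q sum of at least 5, and the levels were read from the rest. The 691 members by that smaller set, 654 of them members by all UMIs, had 42.6-fold more Lyve1 than marker-poor barcodes (95% interval 30.8 to 60.8), 13.6-fold more Folr2 (11.8 to 15.7), 13.5-fold more Timd4 (9.10 to 20.9), 10.0-fold more Cd163 (8.03 to 12.6) and 9.58-fold more Cbr2 (8.53 to 10.8) in the UMIs that had not chosen them. Of the 986 marker-poor barcodes by that smaller set, 137 were members by all UMIs. These 5 genes chose the barcodes, so an excess was built in and the folds are a description. By all UMIs F13a1, a resident marker left out of the rule, was 1014 CPM in members (988 to 1040) and 126 CPM (117 to 135) in marker-poor macrophages, 8.06-fold higher (7.46 to 8.72).

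After thinning each barcode to 2500 UMIs, Cbr2 was detected in 78.0% of members (75.1 to 80.8%), Folr2 in 70.4% (67.2 to 73.4%), Lyve1 in 40.8%, Cd163 in 39.7% and Timd4 in 20.3% (17.7 to 23.2%), against 8.31%, 5.68%, 0.315%, 2.94% and 0.736% of marker-poor macrophages in that order. T cells, which should lack these genes, gave 1.64% for Cbr2, 0.546% for Folr2, 0.820% for Lyve1, 0.546% for Cd163 and 0.273% for Timd4. Their median depth before thinning was 3488 UMIs, against 5976 in members. They were barcodes with Cd3 UMIs, no Csf1r, a C1q sum below 10, no Pdgfra or Cdh5 and no doublet call. That choice left out barcodes with much macrophage RNA, so these shares may understate the background. Lyve1 was also detected in 49.4% of lymphatic endothelial barcodes, where it is a textbook marker.

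The markers were unevenly combined. All 5 were detected in 147 members (17.1%), Folr2 with Cbr2 alone in 144 (16.7%), and Folr2, Lyve1, Cd163 and Cbr2 without Timd4 in 118 (13.7%). Over the 1812 barcodes of both sets after thinning, Lyve1 was found in 62.6% of barcodes with Timd4 (55.2 to 69.7%) and 14.7% of those without it, and Folr2 in 81.3% (74.9 to 86.7%) and 31.4%.

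The number of markers had no gap: 656, 295, 257, 221, 236 and 147 barcodes had 0, 1, 2, 3, 4 and 5 of them. The level of F13a1, Ccl8 and Ccl24 increased and that of Ccr2 and Il1b decreased along this count, although the counting intervals overlapped between 4 and 5 markers for F13a1 and Ccl24 and between 0 and 1 for Ccr2. F13a1 was 84.0, 216, 509, 886, 1376 and 1416 CPM from 0 to 5 markers, and Vsig4, which encodes the complement receptor CRIg, 6.52, 16.2, 46.8, 109, 251 and 219.7 CPM. Il1b (interleukin 1 beta) was 3197, 1928, 1523, 686, 568 and 339 CPM in the same order, and the summed class II genes H2-Aa, H2-Ab1, H2-Eb1 and Cd74 ran 81239.9, 60118, 48601, 29358, 19716 and 18500.1 CPM. Median depth ran 5509.5, 5645, 5579, 5575, 6110.5 and 6464 UMIs in the same order, highest at 4 and 5 markers, and the part of depth in the trend was not tested. The barcodes just inside the threshold, with 2 markers, lay between those with 1 and 3 in F13a1, Ccl8, Ccl24, Vsig4, Fcna, Gas6, Ccr2 and Il1b.

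**Figure D1:**
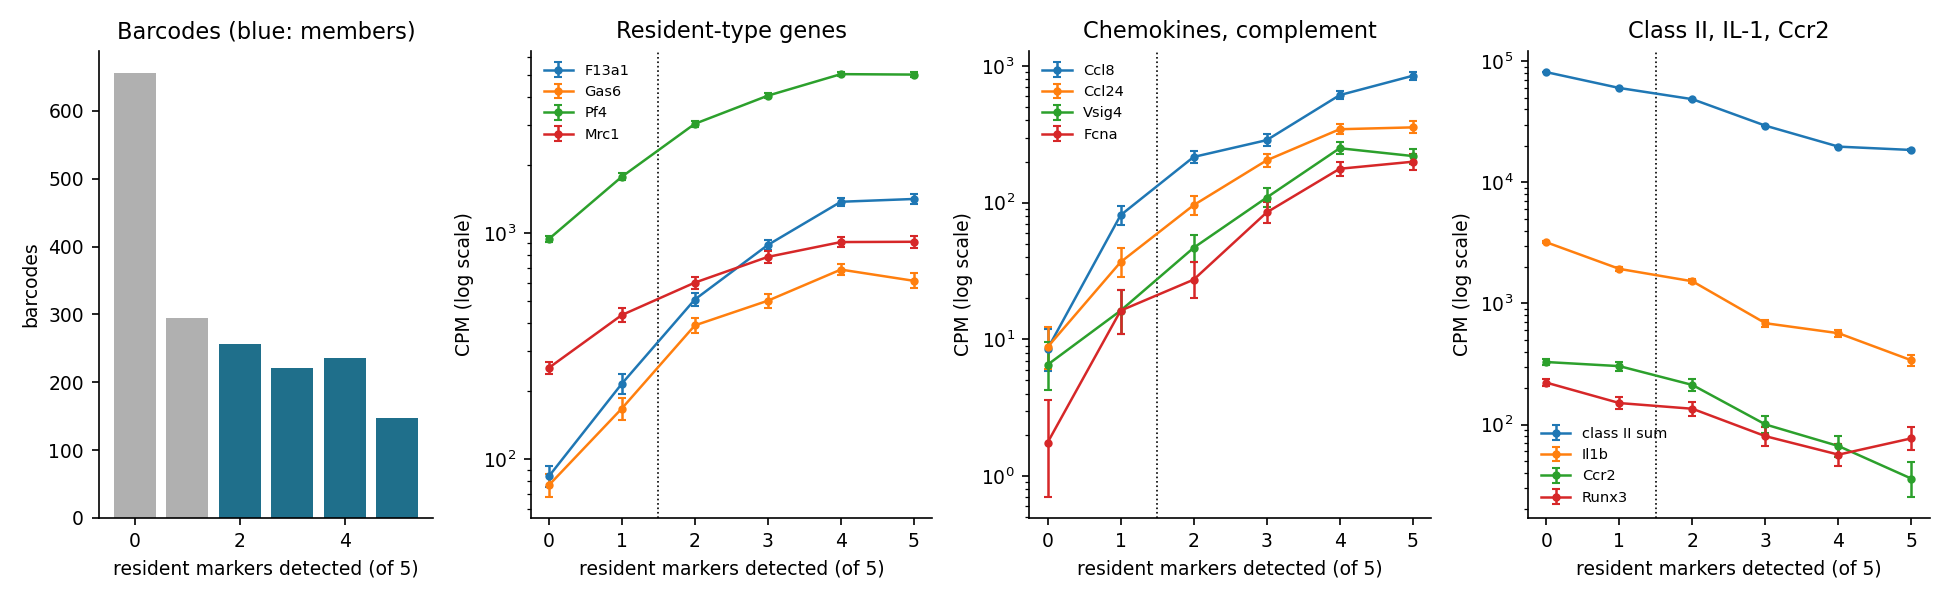
The left panel counts barcodes by number of the 5 resident markers detected, with members in blue. The other panels give CPM (log axis, 95% Poisson intervals) by that number, with a dotted line at the rule's threshold; F13a1 climbs from 84.0 to 1416 CPM, and Il1b and the class II sum descend.

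Against marker-poor macrophages, members were higher in the resident core genes Vsig4, Fcna and Gas6 and in the chemokines Ccl8 and Ccl24, and lower in class II genes, Il1b and Ccr2. Of 10083 measured genes (at least 50 UMIs over both sets, rule genes left out), 375 were at least 2-fold higher with an interval that excluded 1 (3.72%) and 163 were at least 2-fold lower (1.62%). The median measured gene was 0.11 higher in log2 (CPM + 1). Scaled to the median gene, a shift of 0.12 in log2, the counts were 292 higher and 226 lower. Thinning to 2500 UMIs before the rule gave 170 higher and 173 lower, and leaving out barcodes with other lineages' genes, an alternative chosen after the data were seen, gave 340 and 189.

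**Figure D2:**
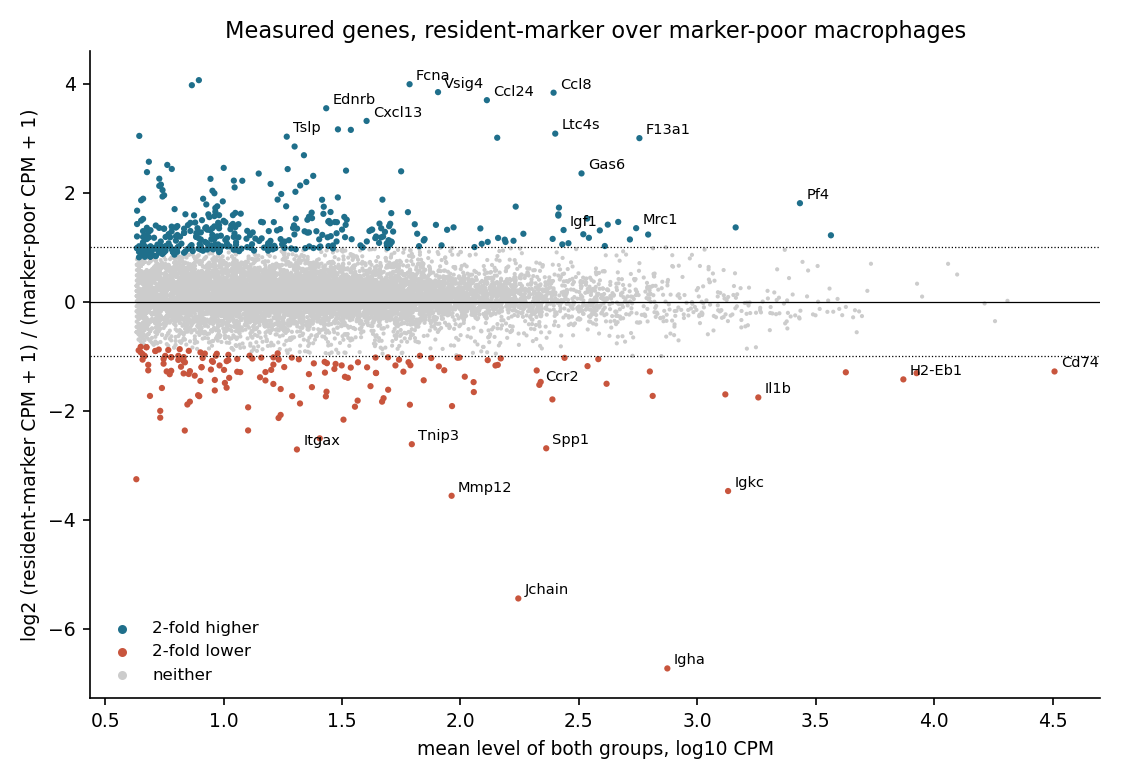
Each point is a measured gene; the x axis is the mean of both sets in log10 CPM and the y axis the log2 ratio of resident-marker over marker-poor macrophages with 1 CPM added. Blue and red points are past 2-fold; Vsig4, Fcna, Ccl8 and Ccl24 lie far above 0, Mmp12, Spp1 and Itgax far below, and Igha and Jchain lie lowest, with over 50% of their marker-poor UMIs in a single barcode.

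The resident core list, 27 genes without the rule's markers but known from these cells, had the highest median of the lists. Of its 23 measured members, 19 were higher and 0 lower, with a median log2 ratio of 1.46 beside 0.11 over all measured genes. This list was chosen with results of these data known and is no independent evidence. The lists overlap, with 45 repeated entries. The resident core genes Cd209f, Stab1, Clec10a, Mrc1, Gas6, Vsig4, Pf4, Igf1 and Maf count again in lists below and are not separate results there. Every list count stands beside 3.72% higher and 1.62% lower over all measured genes. Vsig4 was at 151 CPM in members (141 to 162) and 9.60 CPM in marker-poor macrophages, 15.8-fold higher (12.0 to 21.0), with a range of 8.68 to 23.2-fold over the alternatives. Its UMIs came from 119 member barcodes and 16 marker-poor barcodes. Fcna, which encodes ficolin A, a lectin that starts complement, was at 116 CPM in members and 6.34 CPM in marker-poor macrophages, 18.2-fold higher (13.1 to 26.1), with 5.91 to 65.9-fold over the alternatives. Arg1 barcodes had more Fcna than members, at 184 CPM (145 to 231). Other members of the list moved in the same direction: Ltc4s (leukotriene C4 synthase) 8.62-fold (7.65 to 9.74), Gas6 5.15-fold (4.72 to 5.62), Pf4 3.50-fold (3.41 to 3.60), Mrc1, the mannose receptor, 2.55-fold (2.42 to 2.70), Igf1 2.50-fold (2.31 to 2.70) and the selenium carrier Selenop 2.33-fold (2.28 to 2.38). Cd209f, a C-type lectin, gave 91 UMIs in members and 0 in marker-poor macrophages, at least 30.6-fold higher against a floor of 3 UMIs, but 16 barcodes held all of them.

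Scavenger and lectin receptors were higher in 6 of 15 measured genes and lower in 0, with a median of 0.75. They were Cd209f, Mrc1, Colec12 (10.2-fold, 7.21 to 14.8), Stab1, which encodes stabilin-1 (3.00-fold, 2.77 to 3.27), Siglec1 (2.97-fold) and Clec10a (2.69-fold). Receptors and bridging proteins for dead cells had 3 of 18 higher and 2 lower and a median of 0.06. Over all measured genes 3.72% were higher and 1.62% lower. Gas6, the bridge to the TAM receptors, was 544 CPM in members and 106 CPM in marker-poor macrophages, and Pros1, a second bridge, was 2.48-fold higher (2.06 to 3.00), whereas Mertk itself was 1.55-fold higher (1.27 to 1.90) and Axl 1.70-fold lower (1.54 to 1.87), neither past 2-fold. Cd300lf, an inhibitory lipid receptor, was 2.28-fold lower (1.53 to 3.45) and Tgm2, a transglutaminase, 2.27-fold lower (1.75 to 2.97).

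Complement genes were higher in 4 of 14 measured and lower in 1, beside 3.72% higher and 1.62% lower over all measured genes. Vsig4, C4b (5.74-fold, 4.32 to 7.74) and C2 (3.47-fold) were among those higher. Itgax, the CD11c chain of complement receptor 4 and a marker shared with dendritic cells, was 4.67 CPM in members and 36.2 CPM in marker-poor macrophages, 7.74-fold lower (5.17 to 12.0). The dendritic cell list as a whole summed to 67.6 CPM in members and 97.0 CPM in marker-poor macrophages, with none of its 8 markers at 50 CPM in either.

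Of 19 measured chemokines, 5 were higher (Pf4 among them) and 0 lower, with a median of 0.36. Ccl8, a CC chemokine, was 463 CPM in members (446 to 481) and 31.5 CPM (27.1 to 36.4) in marker-poor macrophages, 14.7-fold higher (12.7 to 17.2). A single barcode held 15.9% of its UMIs in members, and the ratio ranged from 7.59 to 59.3 over the alternatives. The eotaxin Ccl24 was 241 CPM in members and 17.7 CPM in marker-poor macrophages, 13.7-fold higher (11.2 to 16.8; 4.74 to 27.5 over the alternatives), and Ccl7 was 2.67-fold higher (2.51 to 2.85). Cxcl13, a B cell chemokine, was 11.3-fold higher (8.13 to 16.3) from 20 member barcodes and 3 marker-poor barcodes, and 100.7-fold without the barcode with the most UMIs on each side. It was 209 CPM in cycling barcodes, above its 73.9 CPM in members, and the ratio was 2.62-fold against all other barcodes of the gate. Ccl2, a ligand of CCR2, was 864 CPM in members and 438 CPM in marker-poor macrophages and 1.97-fold higher (1.88 to 2.07), just under 2-fold, while the neutrophil chemokine Cxcl2 was 3807 CPM in members and 5618 CPM in marker-poor macrophages.

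Growth factors were higher in 4 of 18 measured and lower in 2, with a median of -0.07. Beside this and the receptor and transcription factor lists stand 3.72% higher and 1.62% lower over all measured genes. Pdgfc, a platelet-derived growth factor, was 16.9 CPM in members and 4.97 CPM in marker-poor macrophages, 3.41-fold higher (2.23 to 5.35), Hbegf 2.87-fold (2.25 to 3.70), Bmp2 2.38-fold and Igf1 389 CPM in members and 156 CPM in marker-poor macrophages. Vegfa, the angiogenic factor, was 8.47 CPM in members and 30.5 CPM in marker-poor macrophages, 3.60-fold lower (2.61 to 5.05), and Gdf3 was 3.14-fold lower (2.37 to 4.20). Among 23 measured receptors, Fgfr1 was 5.07-fold higher (3.64 to 7.21) and Nrp1 2.56-fold higher, Ccr2 was the only 1 lower, and the median was 0.00. The transcription factor list of 36 genes had a median of -0.05. After thinning to 2500 UMIs, 0 of its 33 measured genes were called higher. Tfec still stayed at least 2.98-fold higher in every alternative, thinning included. Without thinning, the 3 higher genes of the list were Tfec (3.99-fold, 2.48 to 6.69), Rxra (2.22-fold, 1.51 to 3.29) and Maf. Maf was at 716 CPM in members and 324 CPM in marker-poor macrophages (2.21-fold, 2.09 to 2.34). The lower ones were Runx3, a T cell and dendritic cell factor (2.25-fold, 2.03 to 2.50), and Pparg (2.12-fold, 1.59 to 2.84).

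Iron and heme genes were higher in 5 of 19 and lower in 0, with a median of 0.52. Cp (ceruloplasmin, a ferroxidase) was 48.8 CPM in members and 15.9 CPM in marker-poor macrophages, 3.06-fold higher (2.41 to 3.91) but 1.54-fold after thinning, Slc40a1 (the iron exporter ferroportin) 2.83-fold (2.20 to 3.66), Blvrb (biliverdin reductase B) 2.48-fold (2.33 to 2.65), Tfrc 2.39-fold and Ncoa4, the ferritin receptor of autophagy, 2.07-fold (1.73 to 2.48). The heme oxygenase gene Hmox1 was 1371 CPM in members and 958 CPM in marker-poor macrophages, 1.43-fold higher (1.38 to 1.48). The list's sum had the opposite sign to its median, at 29235 CPM in members and 30227 CPM in marker-poor macrophages, and Fth1, a ferritin gene, was 15851 CPM in members and 20306 CPM in marker-poor macrophages. Alternative activation genes were higher in 3 of 14 (Ccl24, Clec10a, Mrc1) and lower in 1 (Tgm2). Over all measured genes the shares were 3.72% and 1.62%.

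Beyond the lists, Ednrb, the endothelin B receptor, was 50.9 CPM in members and 3.43 CPM in marker-poor macrophages, 14.8-fold higher (9.43 to 24.6). Arg1 barcodes were above members, at 137 CPM (103 to 178), and the ratio was 4.50-fold against all other barcodes of the gate. The marker-poor comparison also gave Chp2, a calcineurin-like protein, as 10.5-fold higher (7.22 to 15.6). Tslp, an epithelial-type cytokine, was 33.7 CPM in members and 3.26 CPM in marker-poor macrophages, 10.4-fold higher (6.46 to 17.6). It was found in 138 member barcodes and 17 marker-poor barcodes.

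**Figure D3:**
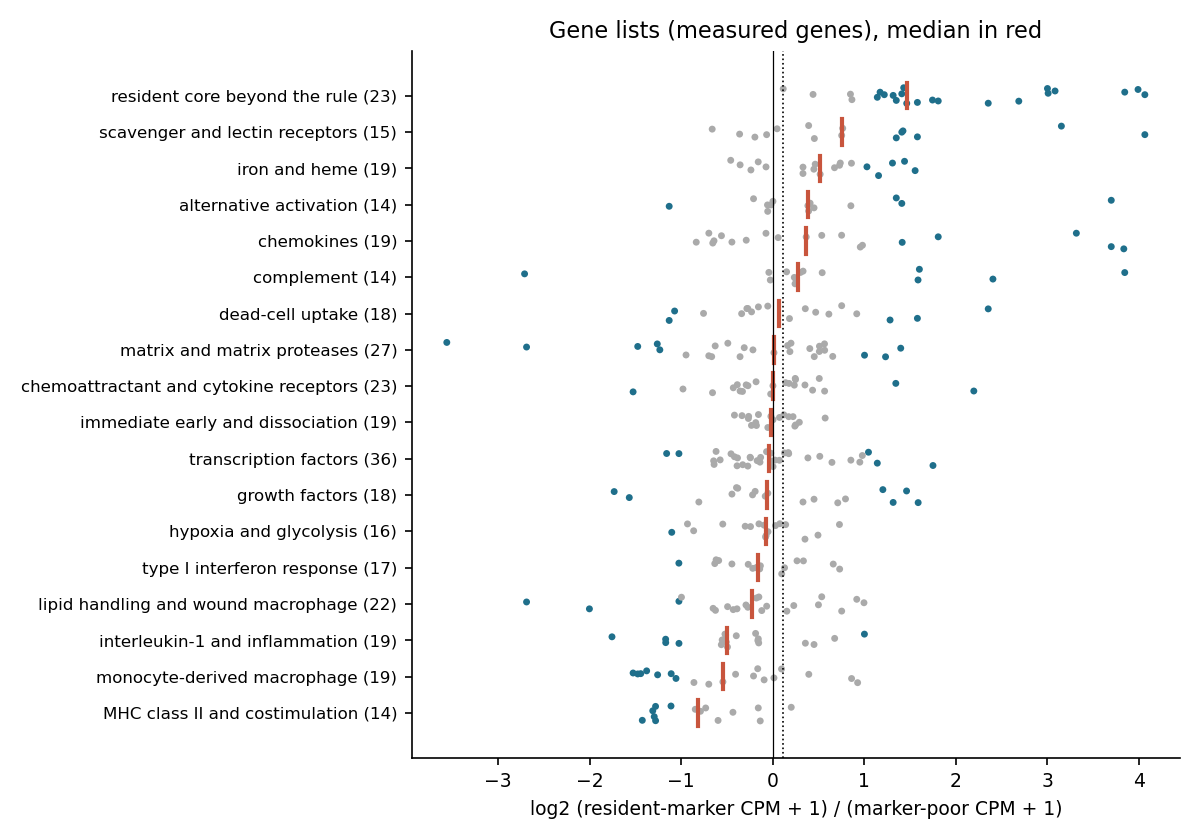
Each point is a measured gene of a list (number in brackets), placed by its log2 ratio of resident-marker over marker-poor macrophages with 1 CPM added, blue at or past 1 in either direction. Red bars are list medians and the dotted line the median of all measured genes at 0.11; the resident core median is 1.46 and the class II median -0.82.

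Class II genes were lower in members. Of 14 class II and costimulation genes, 6 were lower and 0 higher, with a median of -0.82. H2-Eb1 was 4022 CPM in members and 10811 CPM in marker-poor macrophages, 2.69-fold lower (2.65 to 2.73), H2-Aa 4843 CPM in members and 12025 CPM in marker-poor macrophages, H2-Ab1 2453 CPM in members and 6025 CPM in marker-poor macrophages, and the invariant chain Cd74 18802 CPM in members and 45687 CPM in marker-poor macrophages. Ciita, which drives class II transcription, was 2.21-fold lower (1.80 to 2.74). The H2-Eb1 ratio ranged from 2.37 to 3.71-fold lower over the alternatives. Costimulatory Cd86 was 226 CPM in members and 252 CPM in marker-poor macrophages, and Cd80 21.1 CPM in members and 23.3 CPM in marker-poor macrophages.

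Members were spread widely in class II. After thinning to 2500 UMIs, the 4 class II genes summed to a median of 29 UMIs in members (quartiles 3 and 139) and 208 UMIs in marker-poor macrophages (quartiles 117.5 and 270). Under 10 UMIs were found in 327 members (38.0%, 34.7 to 41.3%) and 62 marker-poor barcodes (6.52%). At least 100 UMIs were found in 278 members (32.3%, 29.2 to 35.5%) and 737 marker-poor barcodes (77.5%). The share of barcodes under 10 was 23.3% at 2 markers, 37.6% at 3, 47.0% at 4 and 49.7% at 5, beside 4.12% at 0 and 11.9% at 1.

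**Figure D4:**
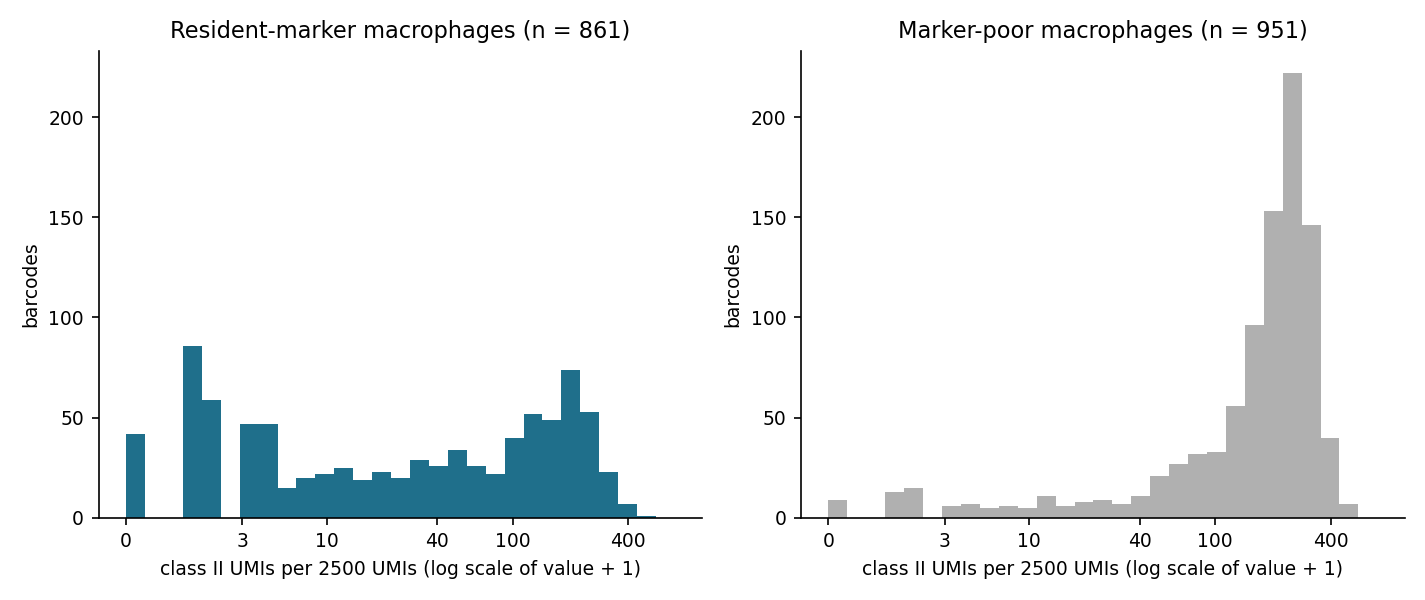
Histograms of class II UMIs (H2-Aa, H2-Ab1, H2-Eb1 and Cd74) per barcode thinned to 2500 UMIs, on a log axis of the value plus 1. Members at the left spread from 0 to 448 with a median of 29; marker-poor macrophages at the right peak near their median of 208.

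Inside the members, F13a1, Lyve1 and Gas6 decreased and Ccr2 and Il1b increased with the class II level. Lyve1 is a gene of the rule, so its values are a description. In the 327 members with under 10 class II UMIs, the 256 with 10 to 99 and the 278 with 100 or more, F13a1 was 1336, 1066 and 593 CPM, Lyve1 598, 425 and 147 CPM, Gas6 712, 540.4 and 352 CPM, and Ccr2 29.5, 92.6 and 221 CPM. Il1b was 306, 787 and 1464 CPM in the same order. Median depths were 6098, 6045.5 and 5689.5 UMIs. These sets were cut from a measured value, so they are ranges and not types.

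Il1b, Ccr2 and other inflammatory and monocyte genes were lower in members. Il1b was 826 CPM in members (803 to 850) and 2795 CPM in marker-poor macrophages (2752 to 2838), 3.38-fold lower (3.28 to 3.50), with 3.19 to 5.09-fold over the alternatives. The list around interleukin 1 had 4 of 19 lower (Il1b, Ptgs2, Nlrp3 and Il1rn) and 1 higher, Il6, with a median of -0.50. Il6 was at 17.1 CPM in members and 8.05 CPM in marker-poor macrophages, 2.13-fold higher (1.49 to 3.08), but was under 2-fold without doublets (1.72-fold) and without the barcode with the most UMIs on each side (1.65-fold), and lower in members after thinning. The monocyte-derived list had 7 of 19 lower and 0 higher, with a median of -0.55. Ccr2 was 111 CPM in members and 320.3 CPM in marker-poor macrophages, 2.90-fold lower (2.65 to 3.18), Thbs1 2.81-fold, Napsa 2.77-fold and Ly6c2 2.69-fold (2.14 to 3.41). Itgb7, Clec4e and Ms4a4c completed the list of those lower. The monocyte marker list summed to 298 CPM in members (284 to 312) and 602 CPM in marker-poor macrophages, with 37 member and 85 marker-poor barcodes carrying 3 or more of its 9 markers, and its part in the lower Ccr2 and Ly6c2 was not tested.

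Wound and matrix genes lay on both sides. Spp1 (osteopontin) was 61.1 CPM in members and 399.7 CPM in marker-poor macrophages, 6.55-fold lower (5.85 to 7.34), and 4.91-fold lower without the barcode with the most UMIs on each side. Mmp12, the macrophage elastase, was 13.5 CPM in members and 170.2 CPM in marker-poor macrophages, 12.6-fold lower (10.0 to 16.1). In the matrix list 6 of 27 were lower (Thbs1, Mmp14, Plaur and Adam8 beside these) and 3 higher, Mmp9 (2.93-fold, 1.94 to 4.53), Timp2 and Ecm1, with a median of 0.01. Mmp9 is also a neutrophil marker, and the neutrophil list summed to 922 CPM in members and 645 CPM in marker-poor macrophages, with 29 member and 35 marker-poor barcodes carrying at least 3 of its 6 markers. Its part in the Mmp9 value was not tested. The lipid and wound list had 3 of 22 lower (Spp1, Gpnmb, Pparg) and 0 higher, with a median of -0.23, while its sum had the opposite sign, at 19678 CPM in members and 15878 CPM in marker-poor macrophages, and Apoe was 14653 CPM in members and 10371 CPM in marker-poor macrophages. Trem2 was 382 CPM in members and 326 CPM in marker-poor macrophages. Tnip3 (6.44-fold lower, 5.19 to 8.05), an inhibitor of NF-kappa-B signalling, and Sh2d1b1 (6.37-fold lower, 4.55 to 9.12), a signalling adaptor, were also lower.

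Igha, Igkc and Jchain, immunoglobulin genes of plasma cells, were 114-fold, 11.2-fold and 49.8-fold lower in members on the summed counts, but the barcode with the most UMIs held 61.4% of Igha, 62.6% of Igkc and 53.3% of Jchain UMIs of marker-poor macrophages. Without barcodes carrying other lineages' genes the log2 ratios were -0.24 for Igha, -0.08 for Igkc and 0.20 for Jchain. The type I interferon list had 1 of 17 lower (Mx1, 2.15-fold, 1.54 to 3.04) and 0 higher, and 0 lower after thinning, with the rule on a random 50% of the UMIs (Mx1 1.29-fold lower) and against all other barcodes of the gate, with a median of -0.17, while its sum ran the other way, 5954 CPM in members and 4348 CPM in marker-poor macrophages. Hypoxia and glycolysis genes had 1 of 16 lower (Ndrg1, 2.22-fold, 1.74 to 2.85). Beside this and the interferon count stands a share of 1.62% lower over all measured genes. Immediate early genes, which rise when tissue is digested into single cells, had 0 of 19 past 2-fold, with a median of -0.02 and a sum of 35756 CPM in members and 36074 CPM in marker-poor macrophages.

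Nts, the gene knocked out in the KO mice, gave 3 UMIs in members and 4 in marker-poor macrophages. Its receptors Ntsr1 and Ntsr2 gave 0 UMIs in both, and Sort1, a sorting receptor that also binds neurotensin, gave 21 UMIs in members and 17 UMIs in marker-poor macrophages. None of these values allowed a statement on a difference.

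The Arg1 and cycling barcodes of the gate, which are small sets, are given side by side with members and marker-poor macrophages. Il1b was 826 CPM in members, 3159 CPM in Arg1 barcodes, 1097 CPM in cycling barcodes and 2795 CPM in marker-poor macrophages. Spp1 was 61.1, 3271, 193 and 399.7 CPM in that order. F13a1 was 1014, 219, 445 and 126 CPM, so cycling barcodes lay between members and marker-poor macrophages. Cbr2 was 928, 114, 406 and 49.0 CPM, and Ccl24 241, 435, 103 and 17.7 CPM. Median depths were 5976, 7347, 9054.5 and 5560 UMIs.

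Among members, Timd4 was detected in 313 (36.4%) and not in 548. The median depth was 6204 UMIs in Timd4-detected and 5663 UMIs in Timd4-undetected members, and detection of a single gene depends on depth. Of 8280 measured genes, 40 were higher (0.483%) and 64 lower (0.773%) in Timd4-detected members. Vsig4 was 279.7 CPM in Timd4-detected and 72.2 CPM in Timd4-undetected members, 3.88-fold higher (3.35 to 4.50), Lyve1 was 669 CPM in Timd4-detected and 234 CPM in Timd4-undetected members (2.86-fold, 2.62 to 3.11), and Cd207 (langerin), from 17 and 13 barcodes, 3.27-fold higher (2.65 to 4.03). Cxcl9 (20.5-fold, 12.1 to 37.4) and Cxcl13 (11.95-fold, 8.90 to 16.4) rested on few barcodes, 6 and 13 of the Timd4-detected ones. Ccr2 was 46.7 CPM in Timd4-detected members and 149.9 CPM in Timd4-undetected members, 3.21-fold lower (2.60 to 4.00), and Spp1 3.65-fold lower (2.71 to 5.02). Retnlg (4.18-fold lower) and S100a8 (2.54-fold lower) are neutrophil genes, and 10 barcodes held 94.2% and 87.9% of their UMIs in Timd4-undetected members. A single barcode held 91.0% of the Ccl21a UMIs on the Timd4-undetected side, beside its 20.7-fold lower value. After thinning, 16 genes were higher, Vsig4 was 1.65-fold, Lyve1 1.63-fold and Cd207 1.93-fold higher, all under 2-fold, and Cxcl13 was lower. Ccr2 was then 2.70-fold and Spp1 2.33-fold lower. Of 13 class II genes 0 were past 2-fold, with a median of -0.38 beside 0.01 over all measured genes. Lyve1 is a gene of the rule, counted among the 40 higher, so its values here are a description.

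Lyve1 was detected in 463 members (53.8%) and not in 398, with a median depth of 6104 UMIs in Lyve1-detected and 5676 UMIs in Lyve1-undetected members. Of 8280 measured genes 98 were higher (1.18%) and 71 lower (0.857%). The 98 include the rule genes Timd4 and Folr2. Fcna was 184 CPM in Lyve1-detected members and 31.0 CPM in Lyve1-undetected members, 5.93-fold higher (4.69 to 7.59), Vsig4 235 CPM in Lyve1-detected members and 47.7 CPM in Lyve1-undetected members, 4.93-fold (4.07 to 6.01), F13a1 2.18-fold (2.06 to 2.31) and Ccl24 2.71-fold (2.39 to 3.09). Class II genes were lower in 5 of 13, with a median of -0.77 beside 0.06 over all measured genes. Il1b was 475 CPM in Lyve1-detected and 1262 CPM in Lyve1-undetected members, 2.66-fold lower, Ccr2 2.65-fold lower, and Ramp1, a co-receptor of the calcitonin family, 2.77-fold lower. Cxcl9 and Cxcl13 (10.2 and 5.23-fold higher) again came from 6 and 15 barcodes. Ccl21a was 10.3-fold higher, with 95.3% of its UMIs from a single barcode, and Spp1 and Retnlg were 3.85-fold and 3.09-fold lower. After thinning, 33 genes were higher and 25 lower. Vsig4 was then 1.91-fold and Cxcl9 1.68-fold higher and Il1b 1.90-fold lower, all under 2-fold, Fcna was 2.07-fold higher, Retnlg 1.02-fold lower and Spp1 higher. Without doublets Ccl21a was lower.

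Split by both genes, 233 members had Timd4 and Lyve1, 80 had Timd4 only, 230 had Lyve1 only and 318 had neither. Vsig4 was 326, 136, 136 and 24.5 CPM in that order, and Fcna 239.8, 46.5, 123 and 26.9 CPM. Folr2, a rule gene, was 1291, 638, 873 and 440.2 CPM, and F13a1 1433, 733, 1233 and 581 CPM. The class II sum was 17509.5 CPM with both, 38683 with Timd4 only, 22396 with Lyve1 only and 43972 with neither. Ccr2 was 33.6, 87.4, 96.5 and 190.0 CPM. Median depths were 6327, 6097.5, 5761.5 and 5574.5 UMIs, and the part of depth was not tested.

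**Figure D5:**
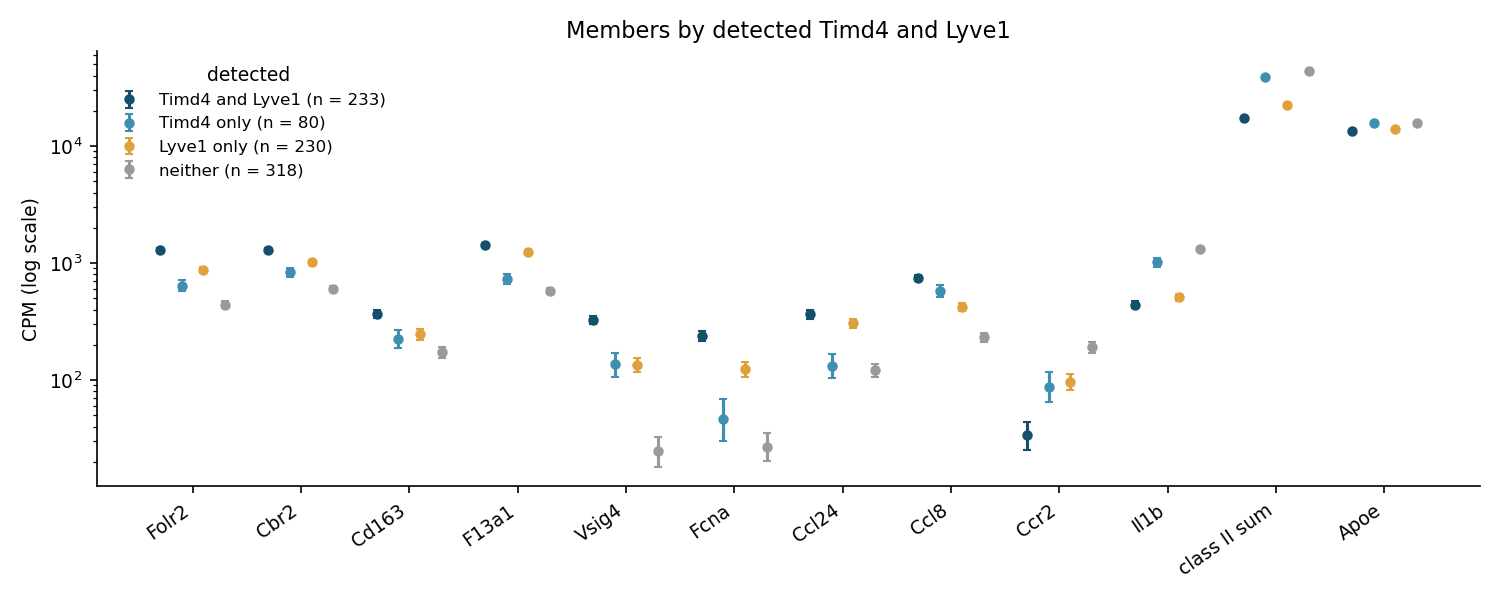
Points are CPM on a log axis with 95% Poisson intervals for members with Timd4 and Lyve1, Timd4 only, Lyve1 only and neither, from left to right within each gene. Vsig4 and Fcna are highest with both (326 and 239.8 CPM), and Ccr2, Il1b and the class II sum are highest with neither.

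Fibroblast markers were the most abundant of the other cell types' lists in members. They summed to 2495 CPM in members, 2081 CPM in marker-poor macrophages, 4891 CPM in T cells and 60017 CPM in fibroblasts. Of the 10, 6 were at 50 CPM or more in both sets, with Dcn at 762 CPM in members and 554 CPM in marker-poor macrophages and Gsn at 1050.2 CPM in members and 1071 CPM in marker-poor macrophages, and Pdgfra was at 0 by rule. At least 3 of them were detected in 510 members and 469 marker-poor barcodes, and their part in the results was not tested. B cell markers were 490.3 CPM in members and 484 CPM in marker-poor macrophages, T cell markers 56.0 CPM in members and 79.0 CPM in marker-poor macrophages, blood endothelial markers 57.9 CPM in members and 68.6 CPM in marker-poor macrophages and cardiomyocyte markers 20.8 CPM in members and 38.7 CPM in marker-poor macrophages. Lymphatic markers were 49.8 CPM in members and 11.1 CPM in marker-poor macrophages, with Ccl21a in members mostly from a single barcode. Barcodes with at least 3 markers and 20 UMIs of another lineage, or at least 200 immunoglobulin UMIs, were found 78 times in members (9.06%) and 85 times in marker-poor macrophages (8.94%).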

How the data were processed

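The deposited matrix of 1 gene expression library holds raw UMI counts per gene and barcode, which the authors did not normalize, with 56953 genes and the CreERT2 transgene. Per the submitters' processing notes the mm10 build, STARsolo and Scanpy were used. Their versions, and how barcodes were called as cells, are not given in the sources used here. The hashtag library was not analysed here. All 9369 barcodes were used, with 69993559 UMIs in all and 2567 to 42567 per barcode, which sets the precision of each value.

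UMIs were summed over each set of barcodes and given as CPM with exact Poisson intervals. Ratios have exact conditional binomial intervals and shares Clopper-Pearson ones (all 95%). With 1 library there is no replicate and no test was run. Genes with under 50 UMIs over both sets were left out, and a gene with 0 UMIs on a side was compared with a floor of 3 UMIs. Rule genes were left out of the comparison with marker-poor macrophages. In the Timd4 and Lyve1 splits only the splitting gene was left out, so other rule genes are in those counts. Doublets were called with Scrublet in scanpy 1.11.5 (357 barcodes, 3.81%) and kept, with their removal as an alternative. Thinning drew 2500 UMIs per barcode at random. Python 3.11.15, numpy 2.4.6, scipy 1.17.1, pandas 2.3.3, anndata 0.12.19 and matplotlib 3.10.9 were used. The comparison was also run on simulated Poisson counts, drawn independently per gene. These lack UMIs gathered in single barcodes, so that run checks the code and not the calls in these data.

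The members, the 19 gene lists (350 genes) and the 16 marker lists were chosen with earlier results of these data known. Named genes were the resident markers, Nts, Ntsr1, Ntsr2 and Sort1, the gene with the largest ratio on each side of each list, and the 8 largest on each side over all genes with at least 200 UMIs, predicted genes left out (5 in the splits). Symbols held by several features were left out of the lists. Other genes named beside a list were picked from it after their values were seen. No value column of another sample was used (0 such columns). Alternatives were other marker numbers, C1q thresholds, depths, rules without 1 marker, other references, UMI minimums, scaling, equal weights, no doublets and, added after the data were seen, no barcodes of other lineages and no top barcode.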

Additional observations from a re-analysis of the deposited data

How the results depend on the processing

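The share of members in the macrophage gate was 31.3% with at least 3 markers, 37.5% after thinning to 2500 UMIs, 48.3% in the middle 50% of barcodes by depth (466 members), and 35.3%, 40.2% and 33.6% when the rule left out Folr2, Cd163 or Cbr2. Genes higher in members numbered 170 after thinning, 241 with the rule on a random 50% of the UMIs, 593 at a minimum of 20 UMIs and 747 with no minimum. Genes lower numbered 259 against all other barcodes of the gate, 292 at 20 UMIs and 356 with no minimum. In Timd4-detected members 16 were higher after thinning, 116 at 20 UMIs and 215 with no minimum, and 141 and 204 were lower under those minimums. In Lyve1-detected members 33 were higher and 25 lower after thinning, 207 and 160 at 20 UMIs and 293 and 260 with no minimum. Lower minimums test more genes, and thinning leaves fewer UMIs.

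Among genes past 2-fold, the sign turned for Il6 (log2 ratio -0.88 after thinning, -0.11 in the middle 50% of barcodes by depth, -0.027 without Folr2, -0.020 without Cbr2, -0.12 against all other barcodes of the gate) and Jchain (0.38 in the middle 50% of barcodes by depth, 0.20 without other lineages), and in the splits for Cxcl13 by Timd4 (-0.12 after thinning), Ccl21a by Lyve1 (-1.04 without doublets) and Spp1 by Lyve1 (0.54 after thinning). The cause was not tested. Nts and Sort1, which were not past 2-fold and have few UMIs, also lay on either side of 0 (Nts -0.40 as reported and 0.37 with the rule on a random 50% of the UMIs, Sort1 0.32 and -0.63). After thinning, the matrix list had 1 higher and 8 lower of 25, the monocyte-derived list 1 and 9 of 17 and the hypoxia list 1 and 3 of 15. The shares of 3.72% higher and 1.62% lower over all measured genes belong to the UMIs before thinning. No such share after thinning is given here, so these list counts have no background beside them. Over 40 named genes and 19 alternatives, 536 of 754 log2 ratios stayed within the counting interval, 211 moved and 7 of genes past 2-fold turned. No paired analysis was possible because the pool is 1 library and no barcode is tied to a mouse. Depth limits markers with few UMIs, such as Timd4, most.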
